A study of Homo sapiens with 6 samples.

Results

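MAPK output genes are transcripts that rise when the kinase ERK is active, and they serve as a readout of the pathway that runs from the epidermal growth factor receptor (EGFR) through RAS, RAF and MEK to ERK. The 10 genes described here are the ERK-induced phosphatases DUSP4, DUSP5 and DUSP6, the Sprouty genes SPRY2 and SPRY4, the ETS factors ETV4 and ETV5, PHLDA1, and the EGFR ligands EREG and AREG. They were chosen by name from the count table, and all 10 were among its 20020 genes and passed the filter on low counts that left 12925. The libraries came from HCT116, a human colorectal carcinoma cell line. CAD here is caspase-activated DNase, the apoptotic nuclease encoded by DFFB. CAD-KO2+IR cells carry the lentiCRISPRv2 plasmid with 1 guide against CAD, sgVec+IR cells carry the vector control, and both groups were harvested 24 h after ionizing radiation (IR) of 8 Gy, with 3 libraries in each. Since every library was irradiated, a response to IR itself cannot be read from these data, and whether the CAD-KO2 line is 1 clone is not given in the sources used here.

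The pathway limits itself. Active ERK induces genes whose products switch the cascade off, among them phosphatases that remove the activating phosphates from ERK and Sprouty proteins that act between the receptor and RAS. Other targets spread the signal: ETV4 and ETV5 are transcription factors of the PEA3 group, and EREG (epiregulin) and AREG (amphiregulin) are made as membrane-anchored precursors that are shed and bind EGFR on the same or neighbouring cells. In colorectal tumours EREG and AREG are known as markers of response to antibodies against EGFR.

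EREG and AREG are neighbours on chromosome 4, and their promoters are shown with those of PHLDA1, whose profile over the libraries lay close to that of EREG, and DUSP6, the member with the largest difference between the groups. RefSeq windows on GRCh38.p14 run from 250 bases before to 50 after the annotated start, and capitals mark the motifs found. The windows are chr4:74364895-74365194 (forward strand) for EREG, chr4:74444886-74445185 (forward) for AREG, chr12:76031727-76032026 (reverse) for PHLDA1 and chr12:89352452-89352751 (reverse) for DUSP6.
EREG: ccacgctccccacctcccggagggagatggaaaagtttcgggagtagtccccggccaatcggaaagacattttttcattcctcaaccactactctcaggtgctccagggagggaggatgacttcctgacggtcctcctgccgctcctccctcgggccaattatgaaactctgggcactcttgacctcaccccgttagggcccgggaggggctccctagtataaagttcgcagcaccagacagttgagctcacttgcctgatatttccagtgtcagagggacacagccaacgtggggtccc
AREG: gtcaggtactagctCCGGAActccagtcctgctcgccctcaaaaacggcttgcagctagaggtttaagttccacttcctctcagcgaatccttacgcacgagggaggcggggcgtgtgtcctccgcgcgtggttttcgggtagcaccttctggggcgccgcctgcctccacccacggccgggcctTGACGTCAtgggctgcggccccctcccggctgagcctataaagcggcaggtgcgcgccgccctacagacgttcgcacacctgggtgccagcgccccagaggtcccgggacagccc
PHLDA1: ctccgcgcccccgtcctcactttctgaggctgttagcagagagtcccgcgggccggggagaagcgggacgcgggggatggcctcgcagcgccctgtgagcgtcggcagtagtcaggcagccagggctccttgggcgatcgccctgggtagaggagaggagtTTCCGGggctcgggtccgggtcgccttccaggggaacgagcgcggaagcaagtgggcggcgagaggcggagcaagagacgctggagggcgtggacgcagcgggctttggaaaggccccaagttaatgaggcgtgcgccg
DUSP6: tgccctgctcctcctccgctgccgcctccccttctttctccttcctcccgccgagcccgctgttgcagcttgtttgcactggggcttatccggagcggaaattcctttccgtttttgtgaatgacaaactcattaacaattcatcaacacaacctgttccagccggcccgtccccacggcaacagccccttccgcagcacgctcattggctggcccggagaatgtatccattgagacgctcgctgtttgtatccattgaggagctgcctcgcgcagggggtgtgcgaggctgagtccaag
Both strands were searched for CCGGAA (a form of an ETS site), TGANTCA (AP-1), TGACGTCA (CRE) and the CArG box of serum response factor. Other forms of an ETS site were not searched for. Of 35116 promoters of this length, 17.2% held CCGGAA, 7.71% TGANTCA, 1.85% TGACGTCA and 1.29% a CArG box. AREG held CCGGAA from position -236 to -231 relative to the start and TGACGTCA from -65 to -58, and PHLDA1 held CCGGAA on the reverse strand from -89 to -84. None of these letters stood in the windows of EREG and DUSP6. Windows were found for 6 of the 10 members. Of the other two, SPRY4 held none of the motifs, and SPRY2 held CCGGAA in 1 of its 3 windows from -142 to -137.

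Totals per library ran from 14032994 to 19574144 counts. The targeted gene DFFB was measured at 10, 10.1 and 12.4 CPM (counts scaled to library size) in CAD-KO2+IR and at 21.8, 22.9 and 20.9 CPM in sgVec+IR, so each knockout library lay below each control library. A pair of libraries stood apart. sgVec+IR replicate 3 had no count for 7561 genes against 4577 to 5232 in the others, and its log2 CPM correlated with theirs at 0.886 to 0.927, whereas sgVec+IR replicates 1 and 2 correlated at 0.993. CAD-KO2+IR replicate 2 differed from its group in the same sense and to a smaller degree. The members' differences are therefore given with and without sgVec+IR replicate 3. The epithelial markers EPCAM, CDH1, KRT8, KRT18 and KRT19 were present in every library (summed 2751 to 3918 CPM in CAD-KO2+IR and 2073 to 4007 CPM in sgVec+IR). Of 6 leukocyte markers, 5 were under 1 CPM in every library, with sums of 1.42 to 2.11 and 2.05 to 5.96 CPM. The 4 endothelial markers summed to 1.0 to 2.22 and 4.16 to 6.07 CPM, and the 5 fibroblast markers to 25.5 to 38.7 and 12 to 47.9 CPM, with DCN and LUM at 0.

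None of the 10 members was called different between CAD-KO2+IR and sgVec+IR, where a call needs both a 1.5-fold change or more and an edgeR adjusted p under 0.05. Adjusted p was 1.0 for each of them, and the log2 fold changes ran from -0.35 to 0.21 with a median of -0.04, beside -0.01 over all genes tested. Among all genes 4 of 12925 were called (0.0309%), and 2.85% had an unadjusted p under 0.05, which no member had. DESeq2 called no member either, against 0.245% of 16728 genes, and at an unadjusted p under 0.05 it again found no member against 2.78% of genes. Since nothing in the labels says that the libraries came from separate cultures, these p-values measure the spread between these samples, which may be technical.

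**Figure D1:**
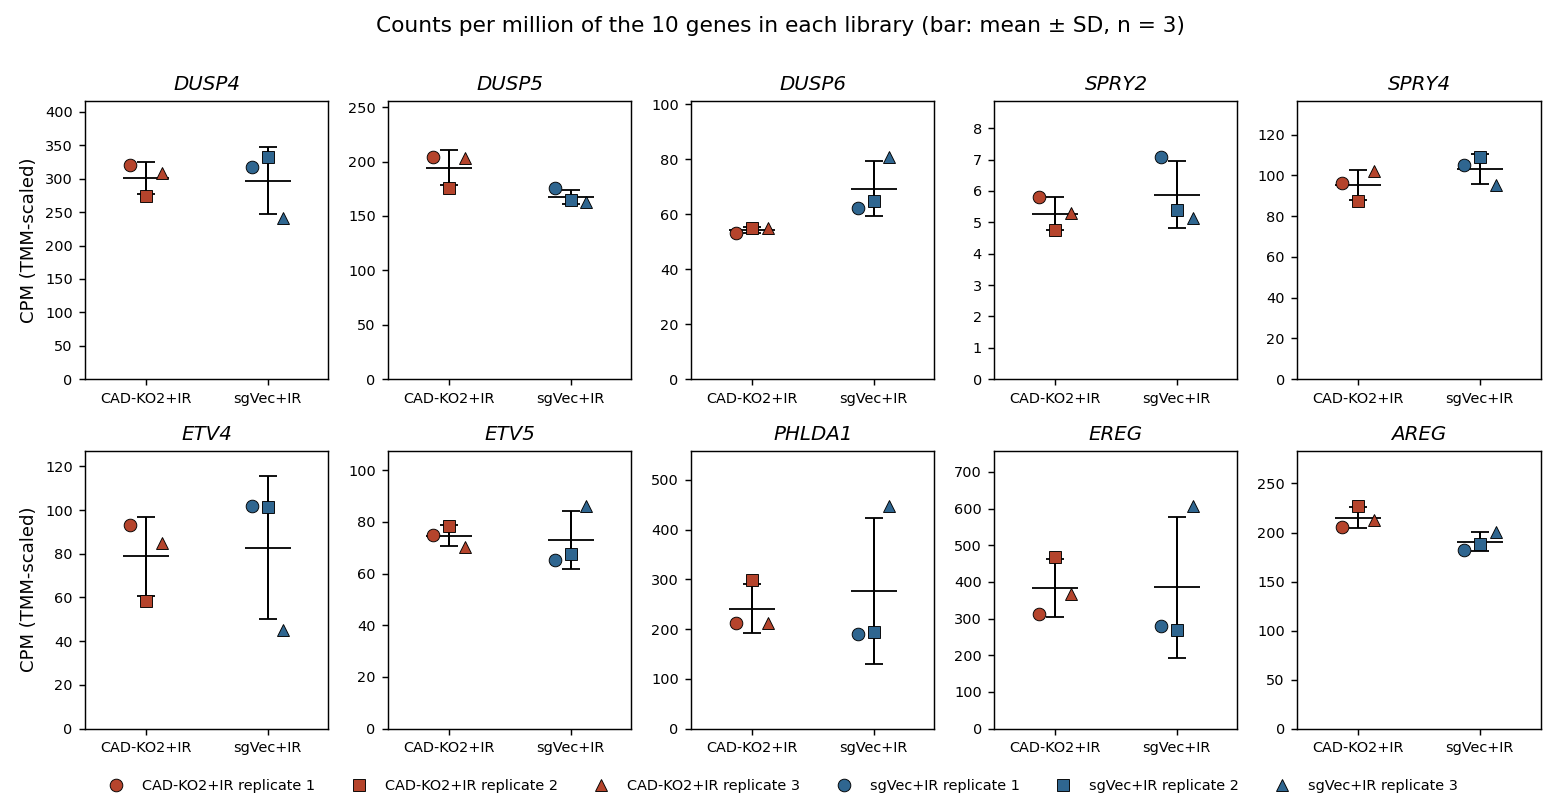
CPM (y axis, from 0) of each of the 10 genes in the 6 libraries, by group on the x axis, with symbols for the replicate and bars for mean ± SD (n = 3). sgVec+IR replicate 3 (blue triangle) is the highest library for DUSP6, ETV5, PHLDA1 and EREG and the lowest for DUSP4, DUSP5 and ETV4.

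Compared per length, AREG was the most abundant member and SPRY2 the least. Mean CPM per kb of exon over the 6 libraries was 123 for AREG (range 110.4 to 138), 69.2 for DUSP5 (62.3 to 78.2), 67.2 for EREG (46.9 to 106) and 41.2 for DUSP4 (33.2 to 45.9). It was 32.1 for PHLDA1 (23.5 to 55.4), 22.4 for ETV4 (12.5 to 28.2), 15.1 for SPRY4 (13.3 to 16.6), 13.3 for DUSP6 (11.5 to 17.5), 12.7 for ETV5 (11.2 to 14.8) and 1.84 for SPRY2 (1.56 to 2.34). AREG lay above all others and SPRY2 below all others in every library. The ranges of DUSP5 and EREG overlapped, as did those of each pair of neighbours from DUSP4 down to ETV5. As the genes were measured in the same libraries, overlapping ranges do not show that such neighbours were equal. The order uses merged exon lengths of GENCODE 29, which may not be the transcripts these cells make.

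**Figure D2:**
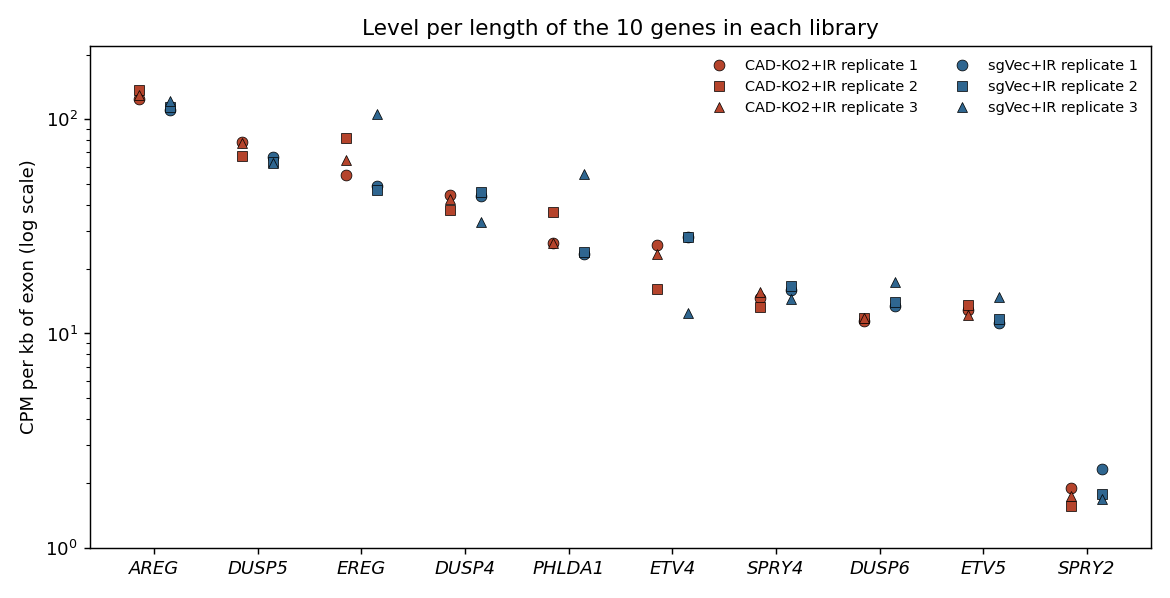
CPM per kb of exon (y axis, log scale) of the 10 genes, ordered by mean level, with 1 symbol for each library. AREG (110.4 to 138) stands above and SPRY2 (1.56 to 2.34) below the rest in each library, and the genes between them form a graded series with overlapping ranges from DUSP4 to ETV5.

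The phosphatases did not move as a group. DUSP6, the cytoplasmic phosphatase selective for ERK, was at 53.1, 54.9 and 54.9 CPM in CAD-KO2+IR and at 62.3, 64.8 and 81.0 CPM in sgVec+IR. All 3 knockout libraries lay below all 3 controls, and the knockout mean was 78.3% of the control mean (54.3 ± 1.03 against 69.3 ± 10.1 CPM, SD, n = 3). Its difference was -0.35 ± 0.17 on the log2 scale (SE; edgeR unadjusted p = 0.0795), and -0.22 ± 0.13 without sgVec+IR replicate 3. DUSP6 was the only member whose groups did not overlap in the lower direction, beside 5.01% of all genes. An antisense gene, AC024909.2, covers 40.5% of the exon bases of DUSP6 in GENCODE 29, and as the strand setting of the counting is not given, reads of the 2 genes cannot be told apart.

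DUSP5, the nuclear phosphatase of ERK, was at 204, 176 and 203 CPM in CAD-KO2+IR and at 175, 164 and 163 CPM in sgVec+IR. The groups touched: the lowest knockout library (175.7 CPM) lay just above the highest control (175.2 CPM), and with scaling to library size alone they overlapped. The mean was 116% of the control mean, and the log2 fold change was 0.21 ± 0.14 (edgeR unadjusted p = 0.177) with all libraries and 0.20 ± 0.13 without sgVec+IR replicate 3. DUSP4, a nuclear phosphatase that also acts on other MAP kinases, was at 319.9, 274 and 308 CPM against 318, 333 and 241 CPM, and its groups overlapped. Its log2 fold change was 0.02 ± 0.17 with all libraries and -0.11 ± 0.12 without sgVec+IR replicate 3, where DUSP4 was at 74.0% of the mean of the other two controls.

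Both Sprouty genes had point estimates slightly below 0 and overlapping groups. SPRY4 was at 96.4, 87.3 and 102 CPM in CAD-KO2+IR and at 105, 109 and 95.1 CPM in sgVec+IR (log2 fold change -0.11 ± 0.15). SPRY2 was the member with the fewest reads, 73 to 116 counts per library, and was at 5.80, 4.75 and 5.30 CPM against 7.09, 5.41 and 5.15 CPM (-0.16 ± 0.25). Without sgVec+IR replicate 3 the values were -0.17 ± 0.13 for SPRY4, whose groups then no longer overlapped, and -0.25 ± 0.23 for SPRY2, whose groups still did.

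The PEA3 factors differed in opposite ways in the library that stood apart. ETV4 was at 93.2, 58.3 and 85 CPM in CAD-KO2+IR and at 102, 101 and 45.0 CPM in sgVec+IR. The lowest library of each group was the one that stood apart in it, and sgVec+IR replicate 3 held 44.3% of the mean of the other controls. ETV5 was at 75, 78.5 and 70.4 CPM against 65.2, 67.7 and 86.0 CPM, with sgVec+IR replicate 3 the highest of all 6. The log2 fold changes with all libraries were -0.07 ± 0.35 for ETV4 and 0.03 ± 0.18 for ETV5. Without that library they were -0.37 ± 0.20 and 0.17 ± 0.13, and neither gene's groups overlapped any longer, with ETV4 lower and ETV5 higher in CAD-KO2+IR. A few exon bases of each are shared with a neighbouring gene in the table, 1.89% of ETV4 with DHX8 and 2.83% of ETV5 with DGKG.

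For PHLDA1, a pleckstrin homology-like domain protein whose transcript is induced by growth factors, 1 library set the direction. It was at 213, 298 and 213 CPM in CAD-KO2+IR and at 189, 194 and 447 CPM in sgVec+IR. sgVec+IR replicate 3 was 2.33 times the mean of the other controls, and CAD-KO2+IR replicate 2 was 1.40 times the mean of the other knockout libraries. The log2 fold change was -0.20 ± 0.36 with all libraries and 0.34 ± 0.18 without sgVec+IR replicate 3 (edgeR unadjusted p = 0.0936, adjusted p = 0.443).

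EREG showed the same dependence. It was at 313, 469 and 368 CPM in CAD-KO2+IR and at 280.2, 268 and 607 CPM in sgVec+IR, so that the means were alike (383 ± 78.9 and 385 ± 192 CPM) while all 3 knockout libraries lay above sgVec+IR replicates 1 and 2. With all libraries the log2 fold change was -0.01 ± 0.35. Without sgVec+IR replicate 3 it was 0.49 ± 0.18, the only member with an unadjusted p under 0.05 (0.0257, adjusted p = 0.407, edgeR), beside 11.9% of the 13141 genes tested there. No member was called in that fit, against 0.167% of genes.

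AREG was the steadier of the 2 ligands. It was at 206, 227 and 213 CPM in CAD-KO2+IR and at 182, 188 and 201 CPM in sgVec+IR. Each knockout library lay above each control, and the mean was 113% of the control mean (215 ± 10.7 against 190.4 ± 9.71 CPM). On the log2 scale the difference was 0.18 ± 0.14 (edgeR unadjusted p = 0.235), and 0.22 ± 0.12 without sgVec+IR replicate 3. AREG and DUSP5 were the 2 members whose groups did not overlap in the higher direction, beside 5.23% of all genes.

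Leaving out sgVec+IR replicate 3 separated the groups for 8 of the 10 members. DUSP5, ETV5, PHLDA1, EREG and AREG were then higher in each CAD-KO2+IR library, beside 21.8% of all genes, and DUSP6, SPRY4 and ETV4 lower, beside 23.7%. With all libraries these shares were 5.23% and 5.01%. Groups of 3 and 2 libraries separate more easily than groups of 3 and 3 whatever the gene. How much of the rise came from group size was not tested. With CAD-KO2+IR replicate 2 left out as well, 4 members had an adjusted p under 0.05 in edgeR, beside 16.2% of 13059 genes. These were EREG (log2 fold change 0.32 ± 0.06, adjusted p = 0.000135), DUSP5 (0.27 ± 0.06, 0.00136), AREG (0.18 ± 0.06, 0.0285) and DUSP6 (-0.23 ± 0.08, 0.0424). None of the 4 reached a fold change of 1.5. That fit sets 2 libraries against 2 and was chosen after the values had been seen.

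**Figure D3:**
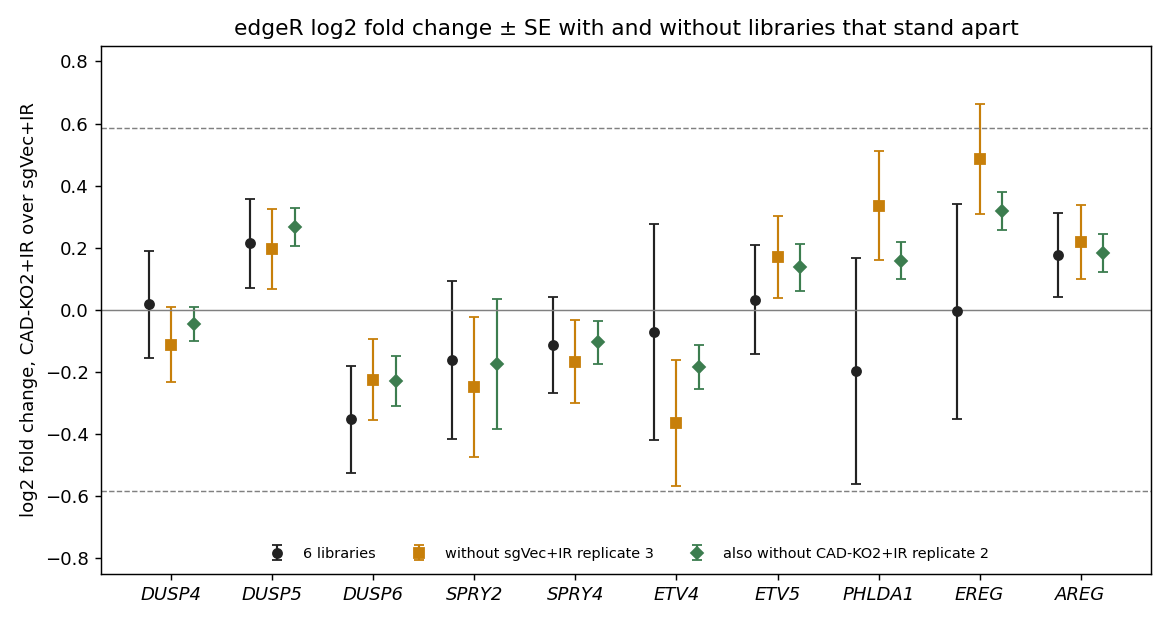
edgeR log2 fold change of CAD-KO2+IR over sgVec+IR ± SE (y axis) for each gene with 6 libraries, without sgVec+IR replicate 3, and also without CAD-KO2+IR replicate 2. Dashed lines mark a 1.5-fold change, which no point estimate reaches. EREG moves from -0.01 to 0.49 and PHLDA1 from -0.20 to 0.34 when sgVec+IR replicate 3 is left out, whereas DUSP5, DUSP6 and AREG keep their side of 0 in the 3 fits.

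The libraries were also weighted instead of left out. In limma-voom with sample quality weights, the pair that stood apart counted least, with 0.0404 for sgVec+IR replicate 3 and 0.154 for CAD-KO2+IR replicate 2, and the others weighed 1.79 to 6.75. By that fit 5 of the 10 members had an adjusted p under 0.05, beside 22.3% of all genes, and the 4 members named above were among them. EREG (log2 fold change 0.38 ± 0.07, adjusted p = 0.00513), DUSP5 (0.25 ± 0.05, 0.00774) and AREG (0.20 ± 0.05, 0.0197) were higher in CAD-KO2+IR, and DUSP6 (-0.22 ± 0.06, 0.0274) and ETV4 (-0.23 ± 0.08, 0.0445) were lower. None passed the fold change of 1.5 as well, which 5.15% of all genes did.

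GC content moved with both libraries that stood apart. Over 12077 genes, the log2 ratio of sgVec+IR replicate 3 to the other controls had a Spearman correlation with transcript GC content of -0.761, and that of CAD-KO2+IR replicate 2 to the other knockout libraries one of -0.837, across genes of the same libraries and so without a p. Genes of at most 42.2% GC had a median ratio of 0.76 in the first and 0.43 in the second, and genes of at least 57.1% GC medians of -1.18 and -0.65. EREG had the lowest GC content of the members (36.1%) and log2 ratios of 1.15 and 0.46, and ETV4 the highest (60.8%) and ratios of -1.17 and -0.61. PHLDA1 (44.3% GC) had ratios of 1.22 and 0.49, above the upper quartiles of genes of 40 to 45% GC, which were 0.79 and 0.44. DUSP5 (55.9% GC) had ratios of -0.06 and -0.21, also above the upper quartiles of its class (-0.39 and -0.27), and SPRY2 (48.3% GC) had ratios of -0.28 and -0.22, below the lower quartiles of its class (-0.21 and -0.06).

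**Figure D4:**
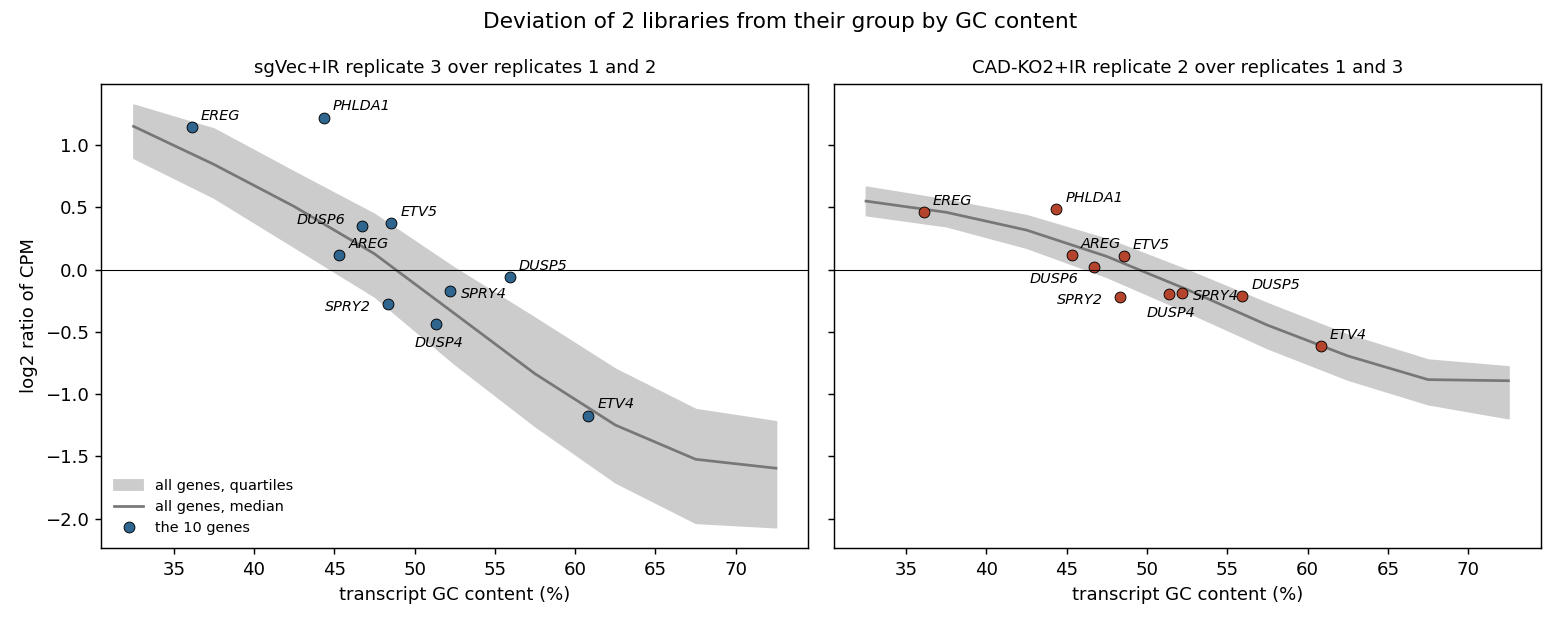
Log2 ratio of CPM of sgVec+IR replicate 3 (left) and CAD-KO2+IR replicate 2 (right) to the other libraries of its group (y axis) against transcript GC content in percent (x axis). The line and band are the median and quartiles of all genes by class of GC content, and the points are the 10 genes. EREG and ETV4 lie at the ends of the members' GC range and near the band, and PHLDA1 lies above it in both panels.

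With the trend on GC content removed from each library, the SE shrank for every member except DUSP5. EREG and ETV4 lie at the ends of the members' GC range, and DUSP4 lies within it. The log2 fold change of EREG was then 0.09 ± 0.07 where it had been -0.01 ± 0.35, that of ETV4 -0.04 ± 0.07 where it had been -0.07 ± 0.35, and that of DUSP4 0.01 ± 0.08 where it had been 0.02 ± 0.17. DUSP6 was at -0.36 ± 0.09 (edgeR unadjusted p = 0.00542, adjusted p = 0.256), and AREG at 0.17 ± 0.07 (adjusted p = 0.484). For PHLDA1 the value was -0.16 ± 0.23. For DUSP5 it was 0.15 ± 0.17 where it had been 0.21 ± 0.14, so its SE rose. EREG was thus near 0 with the trend removed and at 0.49 without the library.

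The members did not share 1 profile over the libraries. Their mean z-scored log2 CPM lay between -0.17 and 0.12 in every library, since members that were high in a library were balanced by others that were low. The closest pair was DUSP4 and ETV4, with a root mean square distance of 0.150 between their z-scored profiles, followed by PHLDA1 and EREG at 0.245, ETV5 and PHLDA1 at 0.321 and ETV5 and EREG at 0.371. ETV4 and ETV5 lay 1.79 apart and EREG and AREG 0.845. For distances to genes outside the list, this mean profile was rescaled to unit SD. The genes nearest to the rescaled profile were FUBP3 (0.0529), POFUT1 (0.210) and COL4A4 (0.254), beside a median of 1.32 over 12915 genes. The rescaling enlarges a mean that was small in every library, so these distances do not describe likeness to the members themselves. The distance of these 3 genes to single members was not computed.

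Of the other 83 genes of the pathway, 80 could be tested and none was called in edgeR with all libraries. Their median log2 fold change was 0.04 (0.01 without sgVec+IR replicate 3, where again none was called). Of the 80, 5 had an unadjusted p under 0.05 in edgeR, beside 2.85% of all genes. EGFR, JUN, CCND1 and KLF6 were higher and UPP1 was lower in CAD-KO2+IR. DESeq2 called 1 pathway gene, UPP1. Over all genes, groups did not overlap for 5.23% (higher) and 5.01% (lower) with all libraries. An adjusted p under 0.05 was found for 16.2% in edgeR with 4 libraries and 22.3% in limma-voom with sample weights. The lists of the pathway were chosen with earlier results of these data known.

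Upstream of RAS, EGFR, the receptor that EREG and AREG bind, was at 162, 180.0 and 161 CPM in CAD-KO2+IR and at 125, 129 and 115 CPM in sgVec+IR. All knockout libraries lay above all controls, with a log2 fold change of 0.45 ± 0.14 (edgeR unadjusted p = 0.0175, adjusted p = 1.0) and 0.40 without sgVec+IR replicate 3. EGFR had an adjusted p of 5.82e-05 in edgeR with 4 libraries and of 0.00133 in limma-voom with sample weights. Its log2 fold change was 0.35 in either fit, short of a 1.5-fold change. ERBB2 (-0.14) and ERBB3 (-0.25) had overlapping groups with all libraries. Without sgVec+IR replicate 3 both lay lower in each knockout library, beside 23.7% of all genes. ERBB2 was then at -0.33 ± 0.21 and ERBB3 at -0.53 ± 0.15 (edgeR unadjusted p = 0.00914, adjusted p = 0.371). ERBB3 had an adjusted p of 0.000486 in edgeR with 4 libraries and of 0.00366 in limma-voom with sample weights, and ERBB4 was too low to test. Of 8 other ligands none was called. With all libraries BTC (betacellulin) was the one whose groups did not overlap, at 3.74, 4.8 and 4.61 CPM against 5.38, 5.07 and 9.80 CPM (-0.61 ± 0.34, and -0.25 ± 0.23 without sgVec+IR replicate 3). Without that library TGFA lay higher in each knockout library (0.39 ± 0.13, edgeR unadjusted p = 0.0179, adjusted p = 0.399), beside 21.8% of all genes. BTC and NRG2 lay lower in each, beside 23.7%. TGFA had an adjusted p of 0.000195 in edgeR with 4 libraries and of 0.0037 in limma-voom with sample weights. For BTC these were 0.37 and 0.253. No gene passed both thresholds among the 4 of ligand shedding, the 9 adaptors or the 13 of the RAS-RAF-MEK-ERK cascade. The shedding genes include ADAM17, the protease that releases AREG and EREG. Log2 fold changes of the cascade ran from -0.17 to 0.38 with all libraries. With 4 libraries, edgeR gave 1 gene of shedding, 2 adaptors and 3 cascade genes an adjusted p under 0.05, beside 16.2% of all genes. With sample weights, limma-voom gave 1, 1 and 2, beside 22.3%. Without sgVec+IR replicate 3 the cascade ran from -0.41 to 0.47, and ARAF, the upper end with all libraries, was at -0.12. There 4 genes of the cascade lay higher in each knockout library, beside 21.8% of all genes. Another 3 lay lower, beside 23.7%.

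Among the other inhibitors, 10 of 11 could be tested and none passed with all libraries or without sgVec+IR replicate 3. SPRY1, another Sprouty gene, was at 3.74, 4.64 and 4.33 CPM in CAD-KO2+IR and at 2.20, 2.67 and 0 CPM in sgVec+IR, where a count of 0 in replicate 3 allows up to 0.211 CPM. Its log2 fold change was 1.35 ± 0.64 with all libraries and 0.80 without sgVec+IR replicate 3 (edgeR unadjusted p = 0.0735 with all libraries). SPRY1 was called in limma-voom with sample weights (0.83, adjusted p = 0.0300), beside 5.15% of all genes. It was not called in edgeR with 4 libraries (0.74, adjusted p = 0.0640). The 7 other DUSPs had a median of -0.17 (-0.24 without sgVec+IR replicate 3) and none passed. DUSP1 was at -0.37 and DUSP10 at -0.39, and at -0.24 and -0.32 without that library, with overlapping groups in either case. Without it all 7 were below 0, and 4 of them lay lower in each knockout library, beside 23.7% of all genes. In limma-voom with sample weights 1 of the 7 had an adjusted p under 0.05, beside 22.3% of all genes.

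Of 13 immediate early genes none was called with all libraries or without sgVec+IR replicate 3. JUN, a subunit of AP-1, was at 28.4, 21.5 and 29.2 CPM in CAD-KO2+IR and at 19.4, 18.1 and 14.2 CPM in sgVec+IR, with no overlap (log2 fold change 0.61 ± 0.22, edgeR unadjusted p = 0.0289, and 0.49 ± 0.19 without sgVec+IR replicate 3). ATF3, a stress-induced factor, was the other with separate groups (0.30 ± 0.18, edgeR unadjusted p = 0.140, and 0.19 ± 0.14 without that library). MYC was at -0.02 and EGR1 at 0.66, both with overlapping groups, and at -0.07 and 0.34 without it. JUN passed both thresholds in edgeR with 4 libraries (0.62, adjusted p = 5.82e-05), beside 440 of 13059 genes. It also did so in limma-voom with sample weights (0.62, adjusted p = 0.000734), beside 5.15% of all genes.

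The list of other ERK output genes held the only pathway gene that DESeq2 called. UPP1, uridine phosphorylase, was at 26.9, 20.7 and 26.5 CPM in CAD-KO2+IR and at 56.8, 56.1 and 59.8 CPM in sgVec+IR. It differed by -1.22 ± 0.18 on the log2 scale (edgeR adjusted p = 0.294, DESeq2 adjusted p = 3.83e-06), and by -1.19 ± 0.16 without sgVec+IR replicate 3. CCND1 (cyclin D1) was at 1067, 1016 and 1103 CPM against 780.5, 764 and 907 CPM (0.38 ± 0.13, edgeR unadjusted p = 0.0199), and KLF6, a zinc finger factor, at 145, 139 and 151 CPM against 106, 102 and 115 CPM (0.43 ± 0.14, 0.0204). Without sgVec+IR replicate 3 they were at 0.46 and 0.48. Both were higher in each knockout library and short of the threshold once adjusted in both of these edgeR fits.

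**Figure D5:**
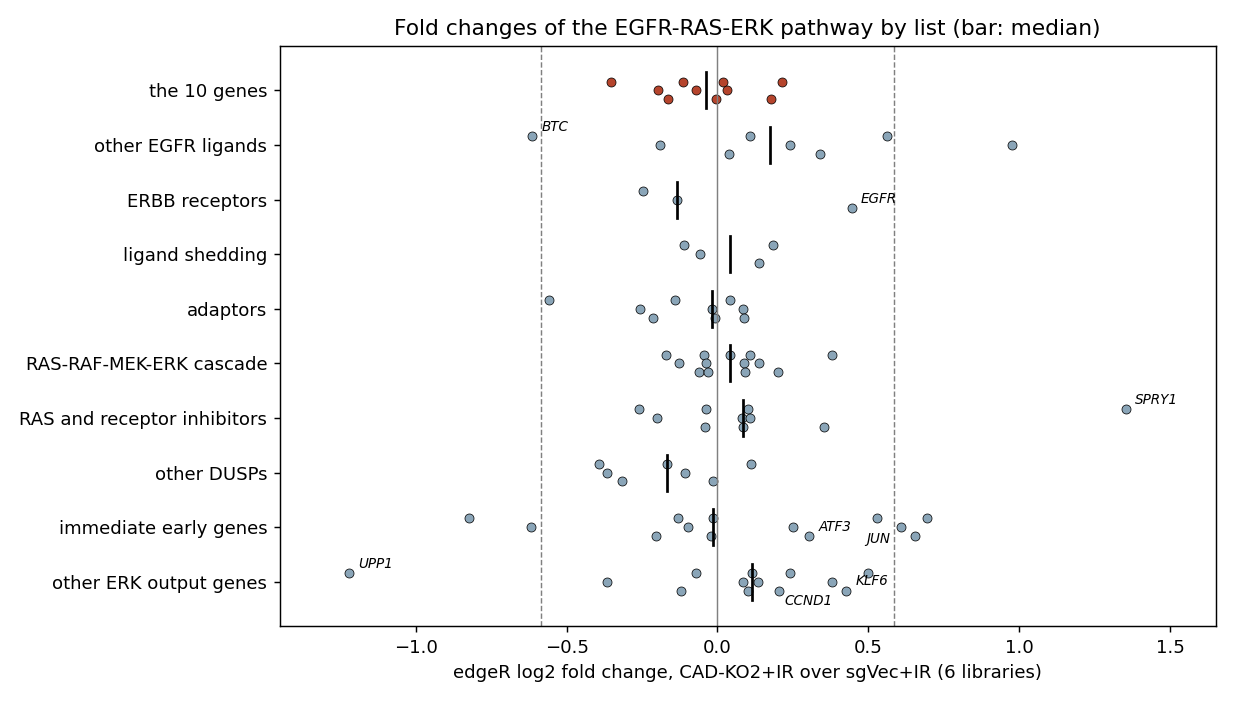
edgeR log2 fold change of CAD-KO2+IR over sgVec+IR with 6 libraries (x axis) for the 10 genes and each list of the pathway (rows), 1 point for each gene tested, with bars for the medians and dashed lines for a 1.5-fold change. The 10 genes span -0.35 to 0.21. UPP1 at -1.22 and SPRY1 at 1.35 lie farthest out, and labels mark the genes described with values whose groups do not overlap.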

How the data were processed

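RNA-seq counts of 6 HCT116 libraries were analysed, with 3 libraries in either group. The authors cleaned the reads with fastp, counted them per gene with featureCounts (version 1.5.0-p3) and deposited the raw counts of the 6 libraries in 1 table. The aligner, annotation and strand setting are not given in the sources used here, and the submitters' processing notes list mm10, a mouse build, whereas the table holds human gene identifiers. The labels list the molecule as genomic DNA, whereas their protocol describes RNA. The dose and time come from the paper.

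Genes passed edgeR's filterByExpr (minimum count 10, minimum total 15), TMM set the scaling between libraries, and edgeR 4.0.16 (quasi-likelihood, legacy FALSE, R 4.3.3) compared the groups over 12925 genes with Benjamini-Hochberg adjustment. CPM are TMM-scaled, and SE is that of the log2 fold change. Correlations between libraries and the GC trend use log2 CPM with a prior count of 2. The z-scores use the log2 of CPM plus a small constant. Calls need a 1.5-fold change or more and an adjusted p under 0.05. Alternatives used DESeq2 1.42.0, limma 3.58.1 (voom, with and without sample weights), other scalings, filters and dispersion fits, the replicate block, and each library left out. A GC content correction (lowess, span 0.3), alone or with the block, and the fit of 4 libraries were added after seeing the data. The table has no length column, so levels per length use merged exon lengths of GENCODE 29, which matched 19823 of the 20020 identifiers. Promoters are from RefSeq. The limit for a count of 0 is 3 counts, for counting error only, as reads are not independent molecules.

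The members and lists were chosen with earlier results of these data known. Genes named beyond the members are DFFB, up to 3 genes for each list with the lowest unadjusted p among those whose groups did not overlap, and the 3 nearest the members' rescaled mean profile. ERBB2, ERBB3, ERBB4, TGFA, NRG2, ADAM17, ARAF, DUSP1, DUSP10, MYC and EGR1 were added after their values were seen. The scripts were tested on simulated data.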

Additional observations from a re-analysis of the deposited data

How the results depend on the processing

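No member was called under any of the alternatives run, and of 210 member fits under 21 alternatives each, 182 kept their sign and 28 did not. DUSP5, DUSP6, SPRY4 and AREG kept their sign in all of them. With sample weights DUSP4 was at -0.0657, EREG at 0.38 and PHLDA1 at 0.16. In DESeq2 without sgVec+IR replicate 3 they were at -0.0939, 0.51 and 0.355, and with 4 libraries at -0.0458, 0.32 and 0.16. DUSP4 was at -0.00769 with library size only. EREG, at -0.01 in the reported fit, was at 0.0886 in limma-voom, 0.00798 without a filter, 0.0835 with the replicate block, 0.0941 with GC correction and 0.0956 with GC correction and block. With each library left out in turn, DUSP4 ran from -0.11 to 0.11, EREG from -0.20 to 0.49, ETV4 from -0.37 to 0.11, ETV5 from -0.0387 to 0.17, PHLDA1 from -0.40 to 0.34 and SPRY2 from -0.25 to 0.00282. The upper ends for EREG and PHLDA1 and the lower ends for DUSP4 and ETV4 are the fits without sgVec+IR replicate 3, the single library that turned the sign of PHLDA1. DUSP4 also turned without CAD-KO2+IR replicate 1 (-0.0148), and EREG without CAD-KO2+IR replicate 1 (0.14) or 3 (0.0332). ETV4 and ETV5 turned without CAD-KO2+IR replicate 2 or either of sgVec+IR replicates 1 and 2, and SPRY2 without sgVec+IR replicate 1.

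Of all genes, 4 were called in the reported fit, 41 in DESeq2, 41 with GC correction, 122 in DESeq2 without sgVec+IR replicate 3, 440 with 4 libraries, 666 with sample weights, 0 in limma-voom, 282 at an unadjusted p in edgeR and 357 in DESeq2, and 0 to 22 with a library left out, the 22 without sgVec+IR replicate 3. Of the pathway lists, 0 genes were called in the reported fit, 1 in DESeq2 with or without sgVec+IR replicate 3, 2 with 4 libraries, 3 with sample weights and 2 at an unadjusted p in edgeR or DESeq2. Same-numbered libraries deviated from their group means with correlations of 0.468 for replicate 1 and of -0.545 and -0.379 for replicates 2 and 3. These means include the 2 libraries that stood apart, which carry different numbers and correlated at 0.552. The values therefore cannot tell whether the numbers pair the samples. With the replicate block 0 genes were called in all and 0 members. The cause of these differences was not tested. The scaling moved the median log2 fold change of all genes by at most 0.05 in any alternative. For SPRY2, at 73 to 116 counts, and for ETV4, PHLDA1 and EREG, the SE of 0.25 to 0.36 limits what could be detected.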
